A study of Mus musculus with 12 samples.

Results

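Retinoic acid (RA) given together with cycloheximide (CHX) was compared with vehicle in cultured mouse spermatogonial stem cells (mSSC) by RNA-seq. The comparison holds 4 of the 12 libraries of the series, 2 biological replicates in each group, and 12281 of 22549 gene symbols, those whose mean over the 4 libraries reached 1 FPKM (fragments per kilobase of transcript, scaled to the mapped fragments of the library). The cells were wild type and came from the testes of male DBA/C57 F1 mice aged 5 to 7 days. They spent a night on laminin-coated dishes and then received vehicle, or 100 nM RA with 0.25 mg/ml CHX, for 24 h. A group given 100 nM RA alone for the same time, also 2 libraries, was fitted with them and is set against the same vehicle libraries. Between RA with CHX and RA alone, 77.7% of genes were called (35.7% higher, 42.0% lower), so a call there is common too. CHX alone was not among the groups, so changes brought by RA and changes brought by CHX cannot be told apart in this comparison. The labels do not say how many mice contributed to a culture.

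RA is made from vitamin A in the testis and starts the differentiation of spermatogonia and their later entry into meiosis. It binds nuclear receptors, heterodimers of an RA receptor and a retinoid X receptor, that sit on response elements in target genes, so its first targets can change without new protein. CHX halts elongation by the ribosome. Transcripts that need a newly made activator then fail to appear, while transcripts normally held down or degraded with the help of a short-lived protein can rise above their usual level. Spermatogonial stem cells depend on GDNF, which acts through GFRA1 and RET, and on FGF, and both maintain transcription factor genes such as Etv5, Bcl6b, Lhx1 and Id4.

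Most of the transcriptome differed between the groups. Limma, with Benjamini-Hochberg adjustment over all genes tested and a threshold of 0.05, called 9762 of 12281 genes (79.5%), of which 4476 were higher with RA and CHX (36.4%) and 5286 lower (43.0%). Changes of at least 2-fold were fewer, 427 genes higher (3.48%) and 1145 lower (9.32%), and at least 8-fold were 8 higher and 37 lower. All fold changes are differences on the log2(FPKM + 1) scale, which understates the change of genes near 1 FPKM. A gene whose mean was below 1 FPKM in 1 group passed the filter only through the other group, where it was higher. Its test is to be read with that limit. The median absolute log2 difference was 0.369 between the groups, 0.0577 between the vehicle libraries and 0.0469 between the RA and CHX libraries. Genes 2-fold or more apart numbered 21 between the vehicle libraries and 36 between the RA and CHX libraries. The correlation across genes was 0.9941 and 0.9858 in these pairs. The groups did not overlap in 90.2% of genes, nor in any gene described below as higher, lower, risen or fallen. The median log2 fold change of all genes was -0.05, and gene list medians are to be read beside it. Of all calls 45.9% were higher, a share of 55.3% once the libraries were quantile normalized, which moved the median of all genes up by 0.111. Because so many genes were called, a list with a mixed count is close to the background, and the lists are described by their counts and medians with no test of the list. Every list count below is to be read beside the shares of all genes, 36.4% higher and 43.0% lower. At 2-fold or more these shares were 3.48% and 9.32%. The deposited FPKM summed to between 481355 and 540064 in the 4 libraries, between 12034 and 12249 genes reached 1 FPKM, and small RNA genes held 5.07% to 9.75% of the sum. The number of reads is unknown. The spacing of low FPKM values gave relative depths of 90.1% to 98.6% of the first vehicle library, from only 33 to 97 genes at the commonest spacing.

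**Figure D1:**
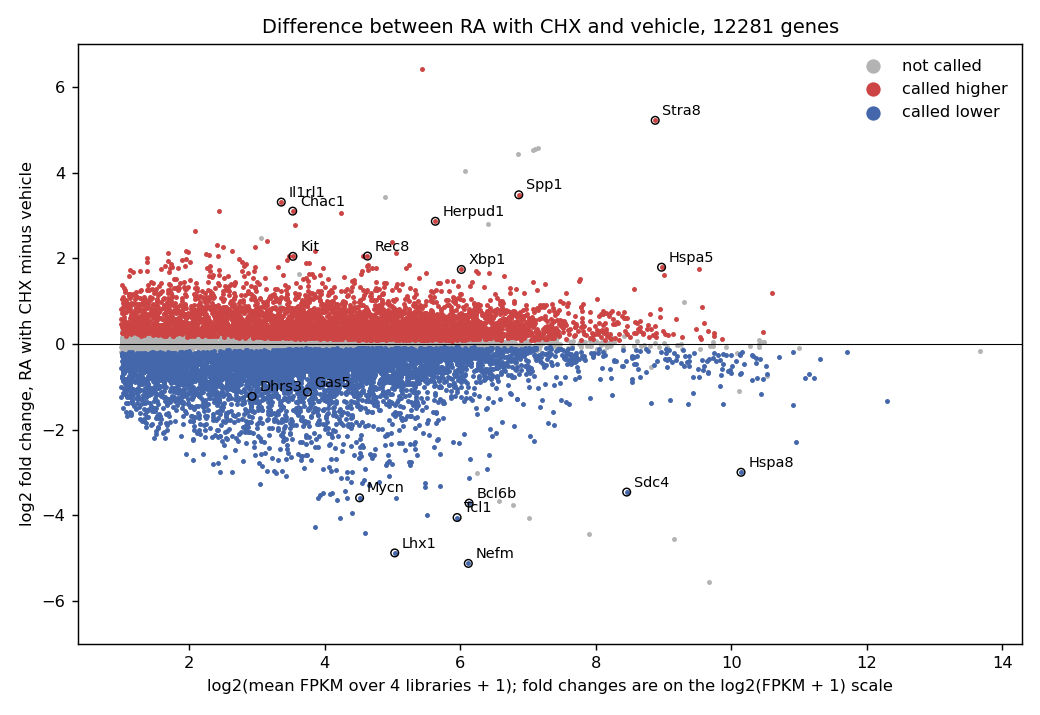
Difference between RA with CHX and vehicle for each of the 12281 genes (vertical axis, log2 fold change) against the mean level over the 4 libraries (horizontal axis, log2(FPKM + 1)). Red points were called higher, blue points called lower and grey points not called by limma. Named genes are circled, and 3 genes lie outside the vertical range. More genes lie far below 0 than far above it, 1145 against 427 at 2-fold or more.

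Stra8, Rec8 and Kit, known to respond to RA in spermatogonia, were higher with RA and CHX. Stra8, a gatekeeper gene of meiosis, stood at 22.9 and 24.4 FPKM with vehicle and 928 and 904 FPKM with RA and CHX, a 38.7-fold higher mean (a log2 fold change of 5.22 ± 0.05 SE, adjusted p = 5.3e-09). It was the largest rise among genes whose mean reached 5 FPKM, leaving out small RNA genes and unnamed gene models. With RA alone it stood at 537 and 584 FPKM, and the level with CHX was higher than that (log2 difference 0.71, adjusted p = 9.01e-06). Rec8, a meiotic cohesin gene, stood at 8.14 and 9.19 FPKM with vehicle and 39.5 and 38.4 FPKM with RA and CHX (a log2 fold change of 2.05 ± 0.06 SE, adjusted p = 1.08e-07), and at 36.8 and 38.3 FPKM with RA alone, from which it did not differ beyond the test's threshold (log2 difference 0.05, adjusted p = 0.411). Kit, the receptor gene of differentiating spermatogonia, stood at 3.19 and 3.87 FPKM with vehicle and 17.7 and 17.6 FPKM with RA and CHX (a log2 fold change of 2.04 ± 0.08 SE, adjusted p = 5.74e-07). All 3 genes had no overlap between vehicle and RA with CHX.

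Of 22 RA target genes, 12 were tested, 8 rose and 4 fell, with a median log2 fold change of 0.82. The count that rose was 4 with a mean of at least 5 FPKM required and 15 with no filter on low values. Rarb, the RA receptor gene best known as a target of RA itself, lay below the tested level, with 0.0439 and 0.055 FPKM with vehicle and 1.88 and 1.85 FPKM with RA and CHX, and 1.97 and 2.07 FPKM with RA alone. Cdx1, a homeobox target of RA, likewise stood at 0.113 and 0.174 FPKM with vehicle and 1.44 and 1.45 FPKM with RA and CHX, with no overlap. The targets that fell were led by Dhrs3, which reduces retinaldehyde back to retinol, at 9.44 and 9.91 FPKM with vehicle and 3.69 and 3.45 FPKM with RA and CHX (a log2 fold change of -1.22 ± 0.06 SE, adjusted p = 1.09e-06), although RA alone left it at 13.4 and 14.3 FPKM. Btg2, an antiproliferative gene, Crabp2, which carries RA to the nucleus, and Ets2, a transcription factor gene, fell by 0.92, 0.87 and 0.84 on the log2 scale.

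Cyp26a1 and Cyp26b1, whose enzymes degrade RA, went opposite ways relative to RA alone. Both passed the filter on low values only through their levels with RA and CHX, and Cyp26b1 was named after its values were seen. Cyp26a1 stood at 0.53 and 0.557 FPKM with vehicle and 2.103 and 1.92 FPKM with RA and CHX (a log2 fold change of 0.96 ± 0.06 SE, adjusted p = 5.1e-06), but at 21.1 and 20.6 FPKM with RA alone, so that its level with CHX was lower than with RA alone (log2 difference -2.86, adjusted p = 1.06e-07). Cyp26b1 stood at 0.087 and 0.114 FPKM with vehicle and 2.897 and 3.33 FPKM with RA and CHX (a log2 fold change of 1.90 ± 0.09 SE, adjusted p = 1.27e-06) and at 1.44 and 1.75 FPKM with RA alone, below its level with CHX (log2 difference 0.66, adjusted p = 0.000357).

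The promoters of Rarb and Cyp26a1 are shown because they hold the classical RA response element, a direct repeat of the half-site AGGTCA with 5 bases between the copies (DR5), where each copy could also be its close variant AGTTCA, the variant GGGTCA, or GGTTCA instead. The sequences are those of RefSeq on GRCm38.p6, a later build than the mm9 of the deposited values, and were searched on both strands over the 250 bases before the annotated start. Such a repeat was present before 28 of 27025 genes (0.104%). In Rarb (minus strand, chr14:16575493-16575549) the repeat begins 53 bases before the start, and in Cyp26a1 (plus strand, chr19:37697756-37697807) it begins 32 bases before it and reads on the opposite strand. Capitals mark the repeat with its spacer.
Rarb: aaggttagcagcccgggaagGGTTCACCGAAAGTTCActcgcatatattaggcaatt
Cyp26a1: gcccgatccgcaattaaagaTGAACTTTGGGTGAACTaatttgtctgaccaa
These letters do not occur in the same window of Stra8 or Rec8, which says nothing of elements elsewhere in those genes. Of the 2 genes shown, Rarb had nearly the same level with and without CHX and Cyp26a1 did not.

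Receptor and retinoid metabolism genes were mixed, with a fall in most receptor and cofactor genes. Of 10 tested, 2 rose and 7 fell (median log2 fold change -0.57). Rxrg, a retinoid X receptor gene, stood at 6.74 and 5.696 FPKM with vehicle and 0.153 and 0.0572 FPKM with RA and CHX (a log2 fold change of -2.71 ± 0.12 SE, adjusted p = 9.58e-07), with 3.63 and 2.72 FPKM under RA alone. Rarg, the RA receptor of spermatogonia, fell from 20.99 and 22.9 to 11.2 and 11.5 FPKM (a log2 fold change of -0.89 ± 0.05 SE, adjusted p = 3.71e-06), close to the 10.9 and 10.3 FPKM of RA alone. Rara, its widely expressed relative, stood at 13.9 and 14.1 FPKM with vehicle and 13.6 and 13.4 FPKM with RA and CHX (log2 fold change -0.05, adjusted p = 0.363). Rxrb and the coactivator gene Ncoa1 were the members that rose (log2 fold changes 0.90 and 0.78). Among 12 tested genes of RA uptake, synthesis and clearance, 6 rose and 5 fell. The RA-making dehydrogenase gene Aldh1a2 rose from 12.3 and 13.04 to 19.4 and 20.3 FPKM, and the retinaldehyde reductase gene Rdh11 fell from 11.3 and 10.1 to 3.75 and 3.21 FPKM.

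**Figure D2:**
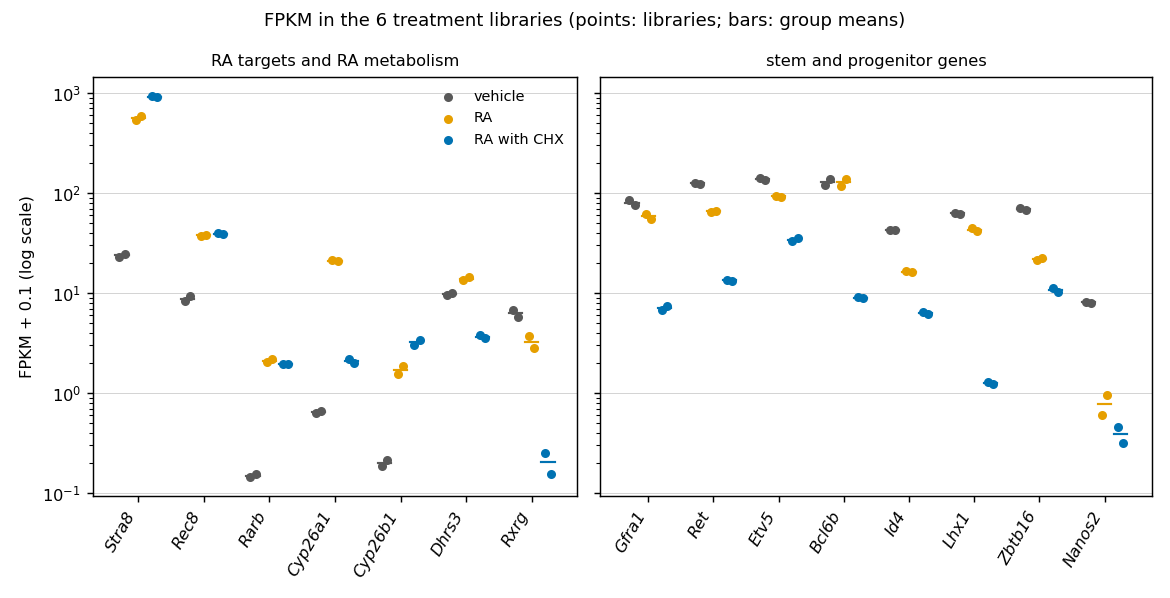
FPKM plus 0.1 on a log axis for genes of the RA response (left) and of stem and progenitor spermatogonia (right) in the 6 treatment libraries; each point is a library and each bar a group mean of 2. Stra8 is highest with RA and CHX, Cyp26a1 is highest with RA alone, and Bcl6b is nearly level between vehicle and RA alone and lower with CHX.

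Stem and progenitor genes fell together, most of them by more than 2-fold. Of 31 tested, 2 rose and 27 fell, 23 of them by at least 2-fold, against 9.32% of all genes, with a median log2 fold change of -1.99. Lhx1, a GDNF-maintained homeobox gene, stood at 63.1 and 61.7 FPKM with vehicle and 1.18 and 1.13 FPKM with RA and CHX (a log2 fold change of -4.88 ± 0.05 SE, adjusted p = 5.3e-09). RA alone left it at 44.7 and 41.2 FPKM. Bcl6b, a GDNF-induced repressor gene needed for self-renewal, stood at 119.5 and 139 FPKM with vehicle and 8.99 and 8.79 FPKM with RA and CHX (a log2 fold change of -3.72 ± 0.09 SE, adjusted p = 6.9e-08). With RA alone Bcl6b was at 118 and 138 FPKM, close to the vehicle libraries.

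Etv5, the ETS factor gene above Bcl6b and Lhx1, fell from 141 and 136 to 33.1 and 35.1 FPKM (a log2 fold change of -1.99 ± 0.04 SE, adjusted p = 3.49e-08), against 93.5 and 91.6 FPKM with RA alone. Foxc2, a forkhead gene of quiescent stem spermatogonia, stood at 46.5 and 44.4 FPKM with vehicle and 1.23 and 1.14 FPKM with RA and CHX, and at 7.899 and 8.198 FPKM with RA alone. Id3 and Id4, which encode inhibitors of helix-loop-helix factors, fell from 80.2 and 90.3 to 3.76 and 5.200 FPKM and from 42.7 and 42.3 to 6.43 and 6.11 FPKM. Zbtb16, the zinc finger gene of undifferentiated spermatogonia, fell from 71.02 and 67.9 to 11.1 and 10.2 FPKM (a log2 fold change of -2.59 ± 0.05 SE, adjusted p = 3.36e-08). Each of these genes was also lower than with RA alone, by -1.41, -2.05, -2.91, -1.25 and -0.97 on the log2 scale in the order given, all called.

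Nanos2 and Nanos3, RNA-binding repressors of differentiation, fell to low levels with or without CHX. Nanos2 stood at 8.07 and 7.87 FPKM with vehicle and 0.356 and 0.221 FPKM with RA and CHX and at 0.507 and 0.852 FPKM with RA alone, and Nanos3 at 13.4 and 14.2 FPKM with vehicle and 1.46 and 1.61 FPKM with RA and CHX and at 2.85 and 1.97 FPKM. Both were called lower with CHX than with RA alone (log2 differences -0.38 and -0.42), calls that end after quantile normalization (adjusted p = 0.188 and 0.0989). They also end for Nanos2 without the second RA or the second RA and CHX library (0.081 and 0.0864), and for Nanos3 without the first RA and CHX library (0.0641). Sall4, a zinc finger gene of the whole spermatogonial pool, fell from 56.8 and 57.4 to 21.9 and 21.8 FPKM (a log2 fold change of -1.35 ± 0.03 SE, adjusted p = 8.46e-08) while RA alone left it at 51.5 and 49.2 FPKM. The members that rose were Sox3, a progenitor gene, from 34.4 and 43.9 to 104 and 97.3 FPKM (a log2 fold change of 1.35 ± 0.12 SE, adjusted p = 3.08e-05), and Taf4b (log2 fold change 0.12), whose call is lost without either RA and CHX library (adjusted p = 0.0562 and 0.0602).

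Receptors and the feedback genes of ERK signalling, which growth factors switch on within the cell, were lower. Of 15 GDNF and FGF receptor genes and other receptor genes of these cells, 2 rose and 10 fell, with a median log2 fold change of -0.85. Ret stood at 126 and 124 FPKM with vehicle and 13.5 and 13.2 FPKM with RA and CHX (a log2 fold change of -3.13 ± 0.03 SE, adjusted p = 5.3e-09), and at 64.3 and 66.5 FPKM with RA alone. Gfra1 stood at 85.01 and 75.3 FPKM with vehicle and 6.73 and 7.28 FPKM with RA and CHX (a log2 fold change of -3.34 ± 0.07 SE, adjusted p = 6e-08), and at 62.00 and 55.1 FPKM with RA alone. Cxcr4, the receptor gene of the niche chemokine CXCL12, fell from 11.5 and 12.4 to 4.26 and 3.92 FPKM. Kit and Met, the receptor gene of hepatocyte growth factor, were the members that rose, a count of 5 after quantile normalization.

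Of 13 ERK feedback genes, 12 fell, 10 by at least 2-fold, and 1 rose (median log2 fold change -1.54). Of all genes, 43.0% fell and 9.32% fell by at least 2-fold. Dusp4, a phosphatase gene, stood at 70.5 and 62.2 FPKM with vehicle and 8.76 and 8.301 FPKM with RA and CHX (a log2 fold change of -2.82 ± 0.06 SE, adjusted p = 4.72e-08). Spry4, a Sprouty inhibitor gene, stood at 54.3 and 49.6 FPKM with vehicle and 6.52 and 6.798 FPKM with RA and CHX (a log2 fold change of -2.79 ± 0.05 SE, adjusted p = 3.67e-08), and Il17rd fell from 50.1 and 46.6 to 10.6 and 10.1 FPKM. With RA alone these 3 genes stood at 33.7 and 32.8, 36.5 and 34.2 and 35.6 and 33.7 FPKM, between the other groups. Dusp2, another phosphatase gene, rose from 3.54 and 4.14 to 7.76 and 7.796 FPKM.

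Other genes with the largest falls came from several families. Nefm had the lowest log2 fold change among genes whose mean reached 5 FPKM, leaving out small RNA genes and unnamed gene models. This neurofilament gene stood at 147 and 122 FPKM with vehicle and 2.87 and 2.86 FPKM with RA and CHX (a log2 fold change of -5.12 ± 0.14 SE, adjusted p = 1.13e-07), with 40.04 and 29.1 FPKM under RA alone. Nxph4 fell from 30.1 and 23.3 to 0.38 and 0.447 FPKM and Mapk11, a p38 kinase gene, from 35.7 and 32.9 to 1.17 and 1.07 FPKM. Tcl1, a coactivator gene of the kinase AKT, fell from 118 and 114 to 5.91 and 6.21 FPKM, and Cdh3, which encodes P-cadherin, from 39.1 and 38.2 to 1.56 and 1.54 FPKM. The transcription factor genes Zic1 and Mycn fell from 59.9 and 60.6 to 3.98 and 4.09 FPKM and from 41.5 and 41.1 to 2.54 and 2.47 FPKM. B3gnt1, Mypop, Crmp1 and Cbr3 completed the 15 lowest, with log2 fold changes of -3.65, -3.60, -3.59 and -3.52. In each of these genes RA alone gave a mean between those of vehicle and RA with CHX.

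Hox genes are homeobox genes that RA activates in many embryonic tissues, and those of the B cluster from Hoxb2 to Hoxb9 were lower with RA and CHX. Of 11 Hox genes tested, these 8 fell, each by at least 2-fold (9.32% of all genes), and 3 rose. Hoxb6 stood at 19.2 and 17.3 FPKM with vehicle and 1.34 and 1.19 FPKM with RA and CHX (a log2 fold change of -3.09 ± 0.11 SE, adjusted p = 3.03e-07) and Hoxb8 at 23.8 and 19.9 FPKM with vehicle and 1.89 and 2.202 FPKM with RA and CHX (a log2 fold change of -2.90 ± 0.11 SE, adjusted p = 4.19e-07). With RA alone they stood at 28.7 and 22.7 and at 26.4 and 22.1 FPKM, above their levels with CHX (log2 differences -3.55 and -3.05). Hoxc13 rose from 1.89 and 2.01 to 3.36 and 3.096 FPKM, and the other members that rose were Hoxb13 and Hoxd8. The list's median of -1.29 becomes 0.12 with no filter on low values, when genes of the other clusters near 0 FPKM are counted, such as Hoxa3 at 0.0148 and 0.0747 FPKM with vehicle and 0.709 and 0.763 FPKM with RA and CHX.

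Of 37 Sox, Fox and Lhx genes tested, 24 fell, 17 by at least 2-fold, and 7 rose, 4 when the first RA and CHX library is left out. Among all genes 43.0% fell, 9.32% by at least 2-fold, and 36.4% rose. Foxf1a, a mesodermal forkhead gene, fell from 30.7 and 30.8 to 1.42 and 2.38 FPKM, against 5.09 and 4.77 FPKM with RA alone. Sox30, which is needed in spermatids, rose from 3.303 and 3.31 to 10.8 and 10.6 FPKM (a log2 fold change of 1.44 ± 0.05 SE, adjusted p = 4.44e-07).

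Genes of differentiating spermatogonia were evenly split, with 7 of 15 higher and 7 lower, beside 36.4% and 43.0% of all genes. Beside Stra8 and Kit, Sohlh1, a helix-loop-helix gene that drives differentiation, rose from 57.8 and 69.5 to 144 and 149.7 FPKM (a log2 fold change of 1.198 ± 0.08 SE, adjusted p = 4.82e-06), although RA alone left it at 61.1 and 60.04 FPKM. Nxf2, an mRNA export gene of germ cells, rose from 107 and 119.7 to 312 and 318 FPKM (a log2 fold change of 1.47 ± 0.06 SE, adjusted p = 7.76e-07). Dmrtb1, which controls the passage from mitosis to meiosis, fell from 16.4 and 16.98 to 2.59 and 3.04 FPKM, and the cyclin gene Ccnd2 from 256 and 236 to 65.5 and 70.5 FPKM. Dmrt1, which restrains meiosis in spermatogonia, fell from 254 and 253 to 199 and 196 FPKM (a log2 fold change of -0.36 ± 0.03 SE, adjusted p = 1.84e-05).

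Meiotic chromosome and germ granule genes leaned upward. Of 13 genes of the synaptonemal complex and meiotic cohesin, 9 rose and 1 fell, and Smc1b, a cohesin subunit gene, stood at 79.9 and 84.95 FPKM with vehicle and 181 and 214 FPKM with RA and CHX (a log2 fold change of 1.25 ± 0.08 SE, adjusted p = 6.17e-06). Sycp3, an axis protein gene, stood at 60.2 and 69.98 FPKM with vehicle and 155 and 164 FPKM with RA and CHX (a log2 fold change of 1.28 ± 0.07 SE, adjusted p = 2.5e-06), above the 85.9 and 92.3 FPKM of RA alone. Of 23 recombination genes, 11 rose and 7 fell, so that counts were mixed. Tex11, an X-linked crossover gene, rose from 54.7 and 57.4 to 114 and 117 FPKM, and Psmc3ip, a partner of the strand exchange proteins, fell from 32.3 and 32.7 to 12.8 and 12.5 FPKM. Dmc1, a strand exchange gene, stood at 15.8 and 17.4 FPKM with vehicle and 16.5 and 18.9 FPKM with RA and CHX (log2 fold change 0.08, adjusted p = 0.323).

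Of 21 piRNA and germ granule genes, 14 rose and 3 fell (median log2 fold change 0.52). Ddx25, a helicase gene of the chromatoid body, stood at 35.5 and 36.4 FPKM with vehicle and 117 and 116 FPKM with RA and CHX (a log2 fold change of 1.67 ± 0.03 SE, adjusted p = 2.87e-08), with 33.4 and 33.8 FPKM under RA alone. Mov10l1, a helicase that makes piRNA precursors into piRNAs, rose from 80.7 and 85.6 to 221 and 219 FPKM, and Tdrd9 from 18.6 and 16.97 to 44.4 and 42.98 FPKM. The germ cell helicase gene Ddx4 rose from 163 and 168 to 238 and 238 FPKM. The members that fell were Tdrd5, Tdrd3 and Mael (log2 fold changes -0.88, -0.55 and -0.29). Rhox genes, an X-linked homeobox cluster of reproductive tissues, had 18 of 22 higher and 0 lower, led by Rhox3a, from 1.61 and 1.28 to 3.92 and 4.68 FPKM. Several Rhox copies are nearly identical, and reads could be split between them.

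**Figure D3:**
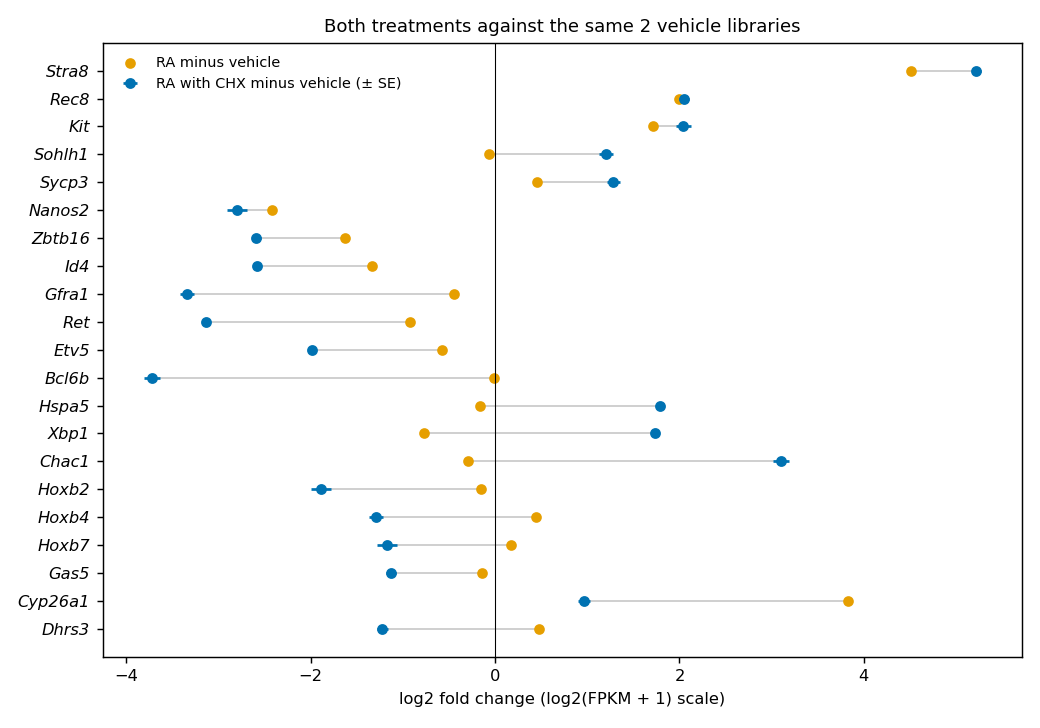
Log2 fold change against vehicle for RA alone (orange) and RA with CHX (blue, ± SE from limma) for 21 named genes, on the log2(FPKM + 1) scale. Both treatments share the same 2 vehicle libraries. Rec8 shows nearly the same value under both, Bcl6b, Gfra1 and the Hoxb genes move with CHX and little or the other way with RA alone, and Cyp26a1 moves less with CHX.

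Genes of protein folding in the endoplasmic reticulum (ER) rose together. Unfolded protein in the ER sets off the sensors IRE1, PERK and ATF6, and XBP1 and cleaved ATF6 then bind ER stress response elements in chaperone promoters. Of 24 genes tested, 22 rose, 8 by at least 2-fold, and 1 fell, with a median log2 fold change of 0.85, against -0.05 for all genes. The shares of all genes were 36.4% higher and 3.48% at least 2-fold higher. Herpud1, which serves the degradation of ER proteins, stood at 10.4 and 11.6 FPKM with vehicle and 84.99 and 87.7 FPKM with RA and CHX (a log2 fold change of 2.86 ± 0.05 SE, adjusted p = 3.05e-08). Hspa5, the gene of the ER chaperone BiP, stood at 221 and 228 FPKM with vehicle and 788 and 769 FPKM with RA and CHX (a log2 fold change of 1.79 ± 0.04 SE, adjusted p = 6.04e-08). Xbp1 stood at 29.2 and 28.6 FPKM with vehicle and 99.5 and 97.9 FPKM with RA and CHX (a log2 fold change of 1.74 ± 0.04 SE, adjusted p = 6.56e-08). RA alone gave 9.49 and 9.43, 195 and 207 and 17.2 and 15.95 FPKM for these genes, so each was higher with CHX than with RA alone (log2 differences 3.06, 1.95 and 2.51). The member that fell was Ern1, the gene of the sensor IRE1, from 11.96 and 12.3 to 5.65 and 5.37 FPKM (a log2 fold change of -1.01 ± 0.05 SE, adjusted p = 1.15e-06).

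Promoter elements of ER folding genes are shown because 9 of the 21 with a RefSeq promoter hold the element that XBP1 and ATF6 are known to bind. This ER stress response element (ERSE), CCAAT followed after 9 bases by CCACG on either strand, was present in the 250 bases before 35 of 27025 genes (0.13%). The 2 of highest fold change with it, and 4 others for comparison, are given 5′ to 3′ on the strand of the gene, with the element in capitals. They lie at chr2:34772005-34772063 (Hspa5, plus strand), chr15:88819500-88819558 (Creld2, plus), chr8:84847055-84847113 (Calr, minus), chr14:118937807-118937865 (Dnajc3, plus), chr12:17266471-17266529 (Pdia6, plus) and chr10:75893222-75893280 (Derl3, plus).
Hspa5: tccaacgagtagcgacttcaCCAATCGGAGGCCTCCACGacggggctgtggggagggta
Creld2: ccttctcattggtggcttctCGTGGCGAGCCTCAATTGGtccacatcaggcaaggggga
Calr: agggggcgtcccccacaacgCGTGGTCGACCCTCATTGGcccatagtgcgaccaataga
Dnajc3: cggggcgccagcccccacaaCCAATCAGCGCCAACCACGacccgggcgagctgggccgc
Pdia6: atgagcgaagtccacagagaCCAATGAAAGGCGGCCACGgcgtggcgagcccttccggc
Derl3: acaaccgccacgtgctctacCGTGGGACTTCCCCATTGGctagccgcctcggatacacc
The elements begin 65, 126, 162, 105, 98 and 156 bases before the starts, and those of Creld2, Calr and Derl3 read on the other strand. Creld2, an ER stress-induced gene, stood at 112 and 113 FPKM with vehicle and 327 and 319 FPKM with RA and CHX (a log2 fold change of 1.51 ± 0.03 SE, adjusted p = 3.86e-08), and Calr, the gene of the lectin chaperone calreticulin, at 215 and 224 FPKM with vehicle and 541 and 531 FPKM with RA and CHX (a log2 fold change of 1.28 ± 0.03 SE, adjusted p = 9.97e-08). The cochaperone gene Dnajc3 and the disulfide isomerase gene Pdia6 had log2 fold changes of 0.95 and 0.95. Derl3, an ER degradation gene, stood at 7.16 and 8.59 FPKM with vehicle and 7.98 and 8.69 FPKM with RA and CHX and was not called (adjusted p = 0.488).

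Members rose with and without the element. Of the 9 members with it, 8 rose and none fell, with a median log2 fold change of 0.95. Of the 12 matched members without it, 11 rose and 1 fell, with a median of 0.60. Over all genes tested, 21 held the element, of which 15 rose and 2 fell (median 0.62), and the 12 of them outside the ER folding list had 7 higher and 2 lower (median 0.38). Of the 9799 genes tested and matched to a promoter, 3618 rose and 4209 fell (median -0.0455). Herpud1 holds the shorter form (ERSE-II), ATTGG followed after 1 base by CCACG on either strand, present before 10 of 27025 genes (0.037%), at chr8:94386357-94386407 on the plus strand, 52 bases before its start.
Herpud1: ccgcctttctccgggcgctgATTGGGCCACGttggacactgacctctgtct

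The integrated stress response, in which phosphorylated eIF2 favours translation of ATF4, gave a less uniform picture. Of 25 genes tested, 13 rose and 9 fell. Chac1, a glutathione-degrading enzyme gene, stood at 1.25 and 1.596 FPKM with vehicle and 19.9 and 19.5 FPKM with RA and CHX (a log2 fold change of 3.10 ± 0.08 SE, adjusted p = 1.08e-07). Nupr1, a stress-induced nuclear protein gene, stood at 2.04 and 1.94 FPKM with vehicle and 20.1 and 19.01 FPKM with RA and CHX (a log2 fold change of 2.78 ± 0.09 SE, adjusted p = 1.91e-07). Ddit3, which encodes the factor CHOP, stood at 9.59 and 10.5 FPKM with vehicle and 36.5 and 38.7 FPKM with RA and CHX (a log2 fold change of 1.81 ± 0.06 SE, adjusted p = 2.58e-07). Atf4 itself rose from 105 and 108 to 191 and 195 FPKM (a log2 fold change of 0.85 ± 0.03 SE, adjusted p = 3.16e-07). Trib3, a pseudokinase gene, rose from 3.796 and 4.098 to 7.13 and 6.66 FPKM. Other members fell, among them Ddit4, from 21.8 and 24.99 to 8.02 and 8.24 FPKM, the eIF2 phosphatase subunit gene Ppp1r15a, from 28.1 and 32.2 to 14.4 and 15.3 FPKM, and the amino acid transporter gene Slc7a5, from 193 and 206 to 102 and 104 FPKM.

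The element that ATF4 and CHOP bind in such genes, TGATGNAAN on either strand, is short and was present before 1052 of 27025 genes (3.89%). It was present in 5 of the 23 tested members with a promoter, namely Chac1, Nupr1, Atf3, Asns and Pycr1, of which 4 rose and none fell. The elements of the 2 with the largest changes lie at chr2:119351028-119351076 (Chac1, plus strand) and chr7:126625553-126625601 (Nupr1, minus strand), 194 and 111 bases before the starts, and both read on the opposite strand. Capitals mark them.
Chac1: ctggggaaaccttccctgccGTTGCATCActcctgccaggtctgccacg
Nupr1: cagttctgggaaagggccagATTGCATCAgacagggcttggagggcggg
Over all genes tested the element alone went with no lean, as 90 of 224 genes with it rose and 89 fell (median log2 fold change 0.03). Among the 9799 genes matched to a promoter 3618 rose and 4209 fell.

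Aminoacyl-tRNA synthetase genes, many of them targets of ATF4, had 19 of 22 higher and 2 lower (median log2 fold change 0.53). Aimp2, a scaffold of the synthetase complex, rose from 72.97 and 71.8 to 147 and 147 FPKM, and Nars from 63.4 and 61.8 to 107 and 102 FPKM. Kars and Hars were the members that fell (log2 fold changes -0.28 and -0.26).

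Cytosolic heat shock genes went the other way from ER chaperone genes. Of 19 tested, 12 fell and 3 rose, 1 of these without the first vehicle or the second RA and CHX library (median log2 fold change -0.60). Hspa8, the gene of the constitutive chaperone HSC70, stood at 2052 and 1973 FPKM with vehicle and 263 and 240.1 FPKM with RA and CHX (a log2 fold change of -2.997 ± 0.05 SE, adjusted p = 3.05e-08), a 8.004-fold lower mean. With RA alone it was at 1716 and 1697 FPKM. The inducible genes Hspa1a and Hspa1b, near-identical copies whose reads cannot be placed with certainty, fell from 4.62 and 5.17 to 1.32 and 1.03 FPKM and from 14.5 and 15.2 to 3.32 and 2.82 FPKM. Of the 3 that rose, Hspa4 had a log2 fold change of 0.29, while Hspb1 and Hsf2 (0.33 and 0.12) lose their calls without the first vehicle or the second RA and CHX library, and Hsf2 also without the first.

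**Figure D4:**
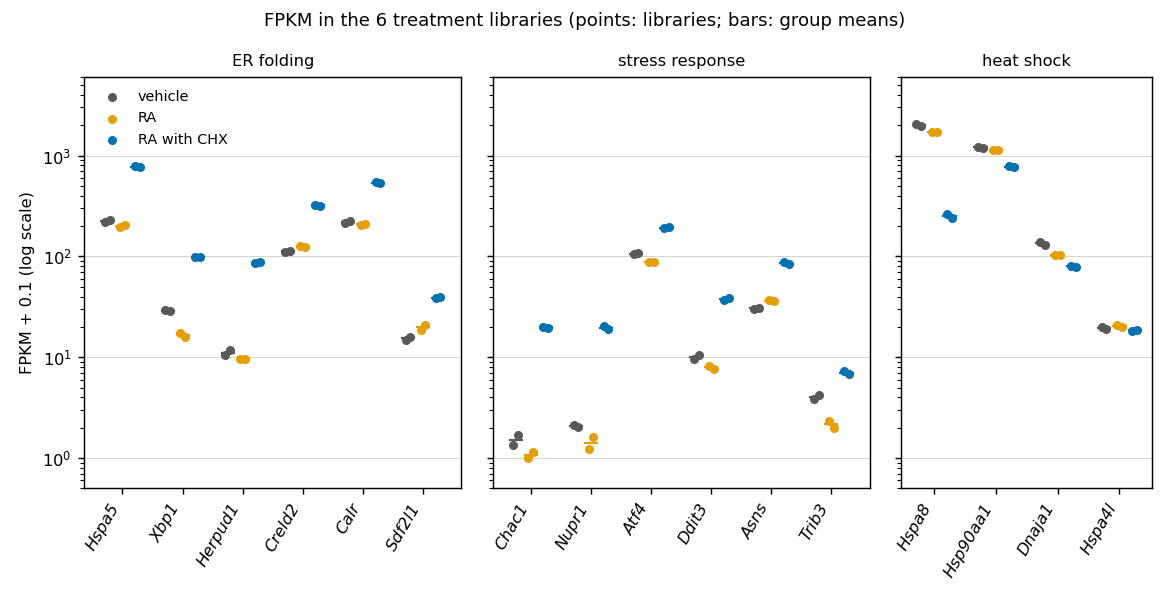
FPKM plus 0.1 on a log axis for genes of ER folding, the integrated stress response and heat shock in the 6 treatment libraries; each point is a library and each bar a group mean of 2. The ER folding and stress response genes shown are highest with RA and CHX, while Hspa8, Hsp90aa1 and Dnaja1 are lowest. Members of the first lists that fell, such as Ern1, Ddit4, Ppp1r15a and Slc7a5, are not shown.

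Genes of the NRF2 response to oxidants fell in the main, 14 of 19 against 3 that rose (median log2 fold change -0.76). Nqo1, a quinone reductase gene, stood at 7.79 and 7.24 FPKM with vehicle and 0.887 and 0.995 FPKM with RA and CHX (a log2 fold change of -2.13 ± 0.08 SE, adjusted p = 4.82e-07), and at 2.22 and 1.86 FPKM with RA alone. Txnrd1, a thioredoxin reductase gene, stood at 179.8 and 168 FPKM with vehicle and 45.7 and 45.2 FPKM with RA and CHX (a log2 fold change of -1.91 ± 0.04 SE, adjusted p = 3.86e-08), and the glutathione transferase gene Gsta4 fell from 96.2 and 80.3 to 13.1 and 14.7 FPKM. Taldo1, Gsr and Gclm rose (log2 fold changes 0.22, 0.20 and 0.14).

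Genes of cholesterol supply, which SREBP2 controls, fell. Of 23 tested, 20 fell, 10 by at least 2-fold (median log2 fold change -0.80), against 43.0% and 9.32% of all genes. Insig1, the ER retention factor of SREBP, stood at 242 and 252 FPKM with vehicle and 81.7 and 81.1 FPKM with RA and CHX (a log2 fold change of -1.59 ± 0.04 SE, adjusted p = 9.22e-08), and Dhcr7, the enzyme of the last step, fell from 59.3 and 58.4 to 19.7 and 20.8 FPKM. Pmvk was the member that rose, a count of 2 after quantile normalization, from 6.51 and 8.27 to 9.38 and 9.93 FPKM, and it loses its call without the first vehicle or the second RA and CHX library.

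Plin2, Fabp3 and Agpat3 were among the named genes that rose. Plin2, the coat protein gene of lipid droplets, rose from 9.02 and 9.51 to 51.4 and 53.1 FPKM (a log2 fold change of 2.38 ± 0.08 SE, adjusted p = 2.11e-07). Fabp3, a fatty acid binding protein gene, rose from 2.37 and 3.797 to 30.9 and 34.5 FPKM (a log2 fold change of 3.06 ± 0.15 SE, adjusted p = 1.34e-06). Agpat3, which encodes an enzyme of phospholipid synthesis, rose from 1.400 and 1.16 to 8.98 and 9.39 FPKM (a log2 fold change of 2.16 ± 0.07 SE, adjusted p = 2.81e-07), but less than with RA alone, which gave 20.4 and 22.4 FPKM.

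Glycolysis genes were mostly lower and mitochondrial respiration genes mostly higher. Of 24 glycolysis genes, 16 fell and 3 rose, or 5 after median-ratio scaling, with Tpi1, triosephosphate isomerase, falling from 52.96 and 57.8 to 13.5 and 14.2 FPKM (a log2 fold change of -1.92 ± 0.06 SE, adjusted p = 1.79e-07) and the muscle enolase gene Eno3 rising from 7.24 and 7.83 to 16.98 and 16.9 FPKM. Of 76 oxidative phosphorylation genes, 51 rose and 6 fell, none of them by 2-fold (median log2 fold change 0.26). The count that fell was 10 after quantile normalization and 3 without the first RA and CHX library. Uqcrc2 of complex III rose from 71.2 and 66.4 to 123 and 127 FPKM and Atp5h of the ATP synthase fell from 271 and 246 to 162 and 174 FPKM. Of 31 lysosome and autophagy genes, 19 rose and 7 fell. Hexa, a lysosomal hexosaminidase gene, rose from 32.1 and 36.8 to 114 and 115 FPKM (a log2 fold change of 1.70 ± 0.06 SE, adjusted p = 3.08e-07), and the autophagy gene Gabarapl1 fell from 36.6 and 36.02 to 11.05 and 12.3 FPKM.

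Genes of secreted signals, NF-kB targets and receptors of inflammation held several of the largest rises. Spp1, which encodes osteopontin, stood at 14.9 and 22.1 FPKM with vehicle and 213 and 212 FPKM with RA and CHX (a log2 fold change of 3.48 ± 0.18 SE, adjusted p = 1.6e-06), a 11.5-fold higher mean, and at 21.9 and 28.7 FPKM with RA alone. Il1rl1, the receptor gene of interleukin-33, stood at 0.942 and 0.826 FPKM with vehicle and 17.4 and 17.96 FPKM with RA and CHX (a log2 fold change of 3.31 ± 0.06 SE, adjusted p = 3.72e-08). Csf1, the macrophage growth factor gene, rose from 2.04 and 1.65 to 14.5 and 13.2 FPKM, and Ptgs2, a prostaglandin synthase gene, from 0.165 and 0.202 to 6.27 and 6.36 FPKM. Of 20 NF-kB and chemokine genes, 11 rose, 8 by at least 2-fold against 3.48% of all genes, and 5 fell. These counts lean on the filter, which Ptgs2 and Il1rl1 passed only through their levels with RA and CHX. With a mean of at least 5 FPKM required, 4 rose and 2 fell, and with no filter on low values 17 rose. Nfkbia and Nfkbiz, regulators within the pathway, and the adhesion gene Icam1 were among those that fell (log2 fold changes -0.65, -0.81 and -1.29).

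Of 18 growth factor and ligand genes, 8 rose and 8 fell, with a median of -0.10 that is 0.065 after quantile normalization. The count that rose was 2 with a mean of at least 5 FPKM required and 18 with no filter on low values. Ereg and Inhba passed the filter only through their levels with RA and CHX. Ereg, an EGF receptor ligand gene, stood at 0.17 and 0.101 FPKM with vehicle and 8.37 and 9.03 FPKM with RA and CHX (a log2 fold change of 3.09 ± 0.08 SE, adjusted p = 9.83e-08), and Inhba, an activin subunit gene, at 0.502 and 0.329 FPKM with vehicle and 5.09 and 5.59 FPKM with RA and CHX (a log2 fold change of 2.16 ± 0.09 SE, adjusted p = 6.38e-07). Sfrp2, a secreted Wnt inhibitor gene, fell from 95.5 and 92.01 to 8.28 and 8.84 FPKM (a log2 fold change of -3.31 ± 0.07 SE, adjusted p = 4.09e-08), Pdgfa from 64.8 and 69.1 to 11.8 and 10.97 FPKM and Igf2 from 75.1 and 78.8 to 20.9 and 20.6 FPKM.

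Matrix and actin genes split by member. Of 29 matrix and adhesion genes, 8 rose, or 13 after quantile normalization, and 12 fell, beside 36.4% and 43.0% of all genes. Tnc and Thbs1, which encode tenascin and thrombospondin, rose from 2.05 and 1.43 to 9.44 and 9.87 FPKM and from 6.45 and 4.89 to 19.3 and 20.03 FPKM. The laminin receptor subunit genes Itga3 and Itga6 fell from 19.1 and 20.8 to 5.000 and 4.91 FPKM and from 32.4 and 32.4 to 11.1 and 11.5 FPKM. Timp1, a metalloproteinase inhibitor gene, rose from 12.3 and 10.6 to 54.2 and 51.4 FPKM, and Cald1, the gene of an actin-binding protein, from 3.38 and 3.27 to 17.1 and 16.9 FPKM. Tnfrsf12a, a TNF family receptor gene, and Ly6k, a surface protein gene of germ cells, were also among the 15 highest (log2 fold changes 2.16 and 2.26). Sdc4, a heparan sulfate proteoglycan of cell adhesion chosen after its values were seen, fell from 629 and 659 to 55.8 and 59.5 FPKM, in a gene of high level.

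Markers of other cell types are given beside these genes, since secreted and matrix genes are also expressed by fibroblasts. Summed FPKM of 14 peritubular and fibroblast markers came to 133.8 and 111.0 in the vehicle libraries and to 167.5 and 163.2 in those of RA and CHX. Of 11 of them tested, 4 rose and 3 fell, and without the first vehicle library 7 rose. Vim and Tagln, of the cytoskeleton, rose from 26.5 and 22.8 to 54.6 and 52.1 FPKM and from 9.34 and 6.04 to 17.7 and 19.4 FPKM, while the collagen gene Col1a1 fell from 31.6 and 28.7 to 25.99 and 24.6 FPKM. The smooth muscle actin gene Acta2 rose from 8.46 and 6.79 to 15.05 and 13.9 FPKM and loses its call without the second vehicle library (adjusted p = 0.0523). Fewer cells of a type and less RNA per cell cannot be told apart in such samples, and the part of these cells in the rise of secreted and matrix genes was not tested. Of 9 germ cell markers tested, 5 fell, 4 of them by at least 2-fold, and 3 rose (median log2 fold change -0.29). Those with the 2-fold falls were Gfra1, Nanos2, Zbtb16 and Sall4, stem and progenitor genes described above, and those that rose were Ddx4, Dazl and Tdrd1. The mean log2(FPKM + 1) of all 10 markers went from 5.519 and 5.496 under vehicle to 4.59 and 4.603 under RA with CHX. Their summed FPKM came to 1263 and 1260 against 1191 and 1227, a sum whose largest part was Dazl, a germ cell RNA-binding gene, which stood at 585 and 586 FPKM with vehicle and 634 and 669 FPKM with RA and CHX (a call lost without the second RA and CHX library, adjusted p = 0.0825). Sertoli cell markers were low, with 2 of 12 tested, and their sum was 6.03 and 6.43 FPKM against 9.72 and 10.4 FPKM, carried by Clu at 1.89 and 1.98 FPKM with vehicle and 6.58 and 7.12 FPKM with RA and CHX. Of 8 Leydig cell markers 1 was tested, Star, at 1.88 and 1.65 FPKM with vehicle and 1.87 and 2.06 FPKM with RA and CHX, and the macrophage marker Csf1r was at 0.021 and 0.0071 FPKM with vehicle and 0 and 0.00794 FPKM with RA and CHX, although Cd68 rose from 4.66 and 4.74 to 7.89 and 7.82 FPKM. All 4 endothelial markers tested fell, with Plvap going from 34.6 and 27.2 to 3.04 and 3.16 FPKM, but 2 fell when either vehicle library was left out.

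Immediate early genes, whose short-lived transcripts CHX is known to stabilise, had 10 of 26 higher and 13 lower after 24 h. These counts were not far from the shares of all genes, 36.4% higher and 43.0% lower. Cyr61 and Ctgf, matricellular genes, stood at 0.813 and 0.811 FPKM with vehicle and 6.68 and 6.803 FPKM with RA and CHX and at 0.951 and 0.807 FPKM with vehicle and 6.901 and 7.02 FPKM with RA and CHX (log2 fold changes 2.10 and 2.08, adjusted p = 1.69e-07 and 2.59e-07). Cyr61 and Ctgf passed the filter on low values only through their levels with RA and CHX. Jun and Junb rose from 3.79 and 4.65 to 7.59 and 7.85 FPKM and from 4.97 and 4.58 to 11.5 and 11.6 FPKM. Egr3 and Egr4 fell from 16.6 and 15.9 to 1.46 and 1.79 FPKM and from 115 and 129 to 18.2 and 18.2 FPKM, and both were low with RA alone as well, at 2.84 and 3.15 and 45.01 and 38.2 FPKM. Egr1 stood at 99.5 and 100.0 FPKM with vehicle and 99.9 and 94.2 FPKM with RA and CHX and was not called (log2 fold change -0.04, adjusted p = 0.409). Fos rose slightly (log2 fold change 0.29), and Ier2 fell by 0.11, a call lost after median-ratio scaling or quantile normalization and without the first RA and CHX library. Myc lay below the tested level, at 0.348 and 0.288 FPKM with vehicle and 1.66 and 1.24 FPKM with RA and CHX.

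Targets of TGF-beta and BMP fell more often than they rose, 12 of 18 against 5. Tgif1 and Smad6, inhibitors of the pathway, fell from 27.01 and 27.2 to 5.13 and 5.43 FPKM and from 16.9 and 16.2 to 3.69 and 4.06 FPKM. Grem1, a secreted BMP antagonist gene, rose from 0.255 and 0.663 to 5.18 and 5.69 FPKM, and Skil, a SMAD corepressor gene, from 11.2 and 10.9 to 29.3 and 29.4 FPKM. Grem1 was tested only because of its level with RA and CHX. Of 15 Wnt and Notch genes, 5 rose and 8 fell, with Notch1 falling from 19.98 and 20.6 to 5.39 and 5.61 FPKM.

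Transcripts of the translation machinery moved little for their number. Of 84 cytosolic ribosomal protein genes, 58 fell and 12 rose (median log2 fold change -0.30), counts that are 36 and 28 after quantile normalization. Rps12 stood at 1298 and 1428 FPKM with vehicle and 501 and 535 FPKM with RA and CHX (a log2 fold change of -1.39 ± 0.06 SE, adjusted p = 7.31e-07), and Rps20 fell from 1809.6 and 2034 to 829 and 869 FPKM. Rpl26, which also binds p53 mRNA, rose from 179 and 181 to 291 and 310.0 FPKM. The most abundant genes that fell were Rps28, Rps2, Eef1a1, Rpl41 and Rplp1 (log2 fold changes -0.20, -0.35, -0.80, -0.71 and -0.81), but after quantile normalization Rps28 and Rps2 were higher (0.96 and 0.30) and Eef1a1 and Rplp1 were not called. Rps28 also loses its call without the second vehicle library or either RA and CHX library. The most abundant that rose were Rpl4, Rpl28, Rpl17, Rpl7a and Rpl7, with log2 fold changes of 0.28, 0.12, 0.25, 0.19 and 0.31, and Rpl28 loses its call without the first vehicle library or either RA and CHX library. Eif5, a translation initiation factor gene, fell from 154 and 151 to 42.2 and 42.4 FPKM (a log2 fold change of -1.83 ± 0.03 SE, adjusted p = 1.81e-08) among 50 translation factor genes of which 26 rose and 17 fell. Ribosome biogenesis genes had 27 of 51 higher and 16 lower, with Nop14 rising from 73.6 and 74.5 to 172 and 170.1 FPKM.

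Host transcripts of small nucleolar RNAs, which ribosomes read and nonsense-mediated decay then removes, are known to accumulate when CHX blocks translation for hours. Here 0 of 14 rose and 11 fell (median log2 fold change -0.83), and 7 fell when all 12 libraries were fitted. Gas5, the best known of them, stood at 17.3 and 17.5 FPKM with vehicle and 7.12 and 7.77 FPKM with RA and CHX (a log2 fold change of -1.13 ± 0.05 SE, adjusted p = 1.16e-06), and Snhg5 at 24.5 and 22.7 FPKM with vehicle and 6.34 and 7.06 FPKM with RA and CHX (a log2 fold change of -1.68 ± 0.06 SE, adjusted p = 4.82e-07). With RA alone they stood at 16.2 and 15.3 and at 20.9 and 19.4 FPKM. Of 13 nonsense-mediated decay factor genes, 9 rose and 2 fell, or 4 after quantile normalization, with Smg5 rising from 35.6 and 38.3 to 77.5 and 83.03 FPKM and Upf3b falling from 19.2 and 17.7 to 6.58 and 7.01 FPKM.

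**Figure D5:**
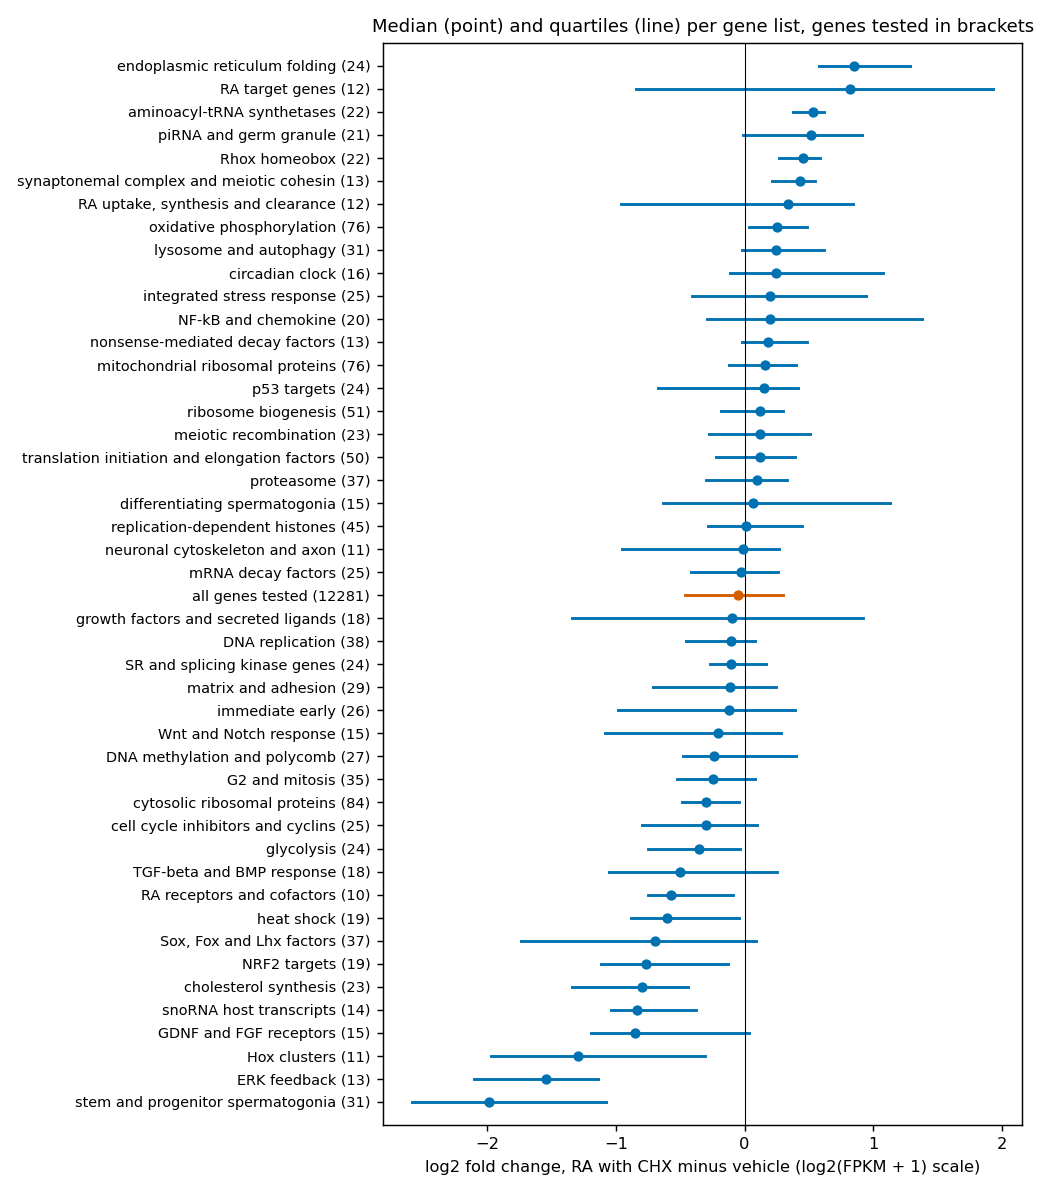
Median log2 fold change, RA with CHX minus vehicle (point), and quartiles (line) of the tested members of each gene list, with the number tested in brackets and all genes in orange. Lists run from ER folding and RA targets at the top, with medians of 0.85 and 0.82, to ERK feedback and stem and progenitor genes at the bottom, with medians of -1.54 and -1.99.

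Cyclin and mitosis genes fell more often than they rose, while replication genes were nearer to the 43.0% of all genes that fell. Of 25 cyclin and inhibitor genes, 16 fell and 6 rose. Ccnd1, the G1 cyclin gene, fell from 53.2 and 45.4 to 12.4 and 13.04 FPKM (a log2 fold change of -1.87 ± 0.11 SE, adjusted p = 4.08e-06), while the inhibitor gene Cdkn1a rose from 16.4 and 16.5 to 33.2 and 35.3 FPKM (a log2 fold change of 1.01 ± 0.05 SE, adjusted p = 1.66e-06), against 10.7 and 11.7 FPKM with RA alone. Of 38 replication genes, 19 fell and 10 rose (median log2 fold change -0.11, against -0.05 for all genes), and the nucleotide supply genes Rrm2 and Tk1 fell from 71.6 and 69.2 to 20.3 and 19.5 FPKM and from 55.2 and 55.6 to 15.8 and 17.4 FPKM. Of 35 mitosis genes, 23 fell and 8 rose, with the centromeric histone gene Cenpa falling from 101 and 96.6 to 40.98 and 40.1 FPKM and Cdc20, an activator of the anaphase-promoting complex, rising from 128 and 129 to 205 and 207 FPKM. Targets of p53 were mixed, 11 of 24 higher and 9 lower, beside 36.4% and 43.0% of all genes. Pmaip1, a cell death gene, fell from 56.1 and 47.2 to 8.12 and 7.199 FPKM, and Ccng1 rose from 17.2 and 16.5 to 34.6 and 36.2 FPKM.

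Among 27 DNA methylation and polycomb genes, 16 fell and 10 rose, beside 43.0% and 36.4% of all genes. Uhrf1, which guides DNA methylation to new strands, fell from 278 and 286 to 106 and 107 FPKM (a log2 fold change of -1.39 ± 0.04 SE, adjusted p = 2e-07), with 267 and 289.7 FPKM under RA alone. The demethylating enzyme gene Tet3 rose from 7.48 and 7.45 to 17.7 and 17.3 FPKM (a log2 fold change of 1.13 ± 0.04 SE, adjusted p = 4.67e-07), Dnmt3l, a cofactor of de novo methylation in germ cells, from 0.652 and 0.614 to 3.67 and 3.12 FPKM, and Mga, part of a complex that represses meiotic genes, from 28.7 and 29.3 to 57.95 and 59.8 FPKM. Dnmt3l was tested only because of its level with RA and CHX. The common reference genes Actb and Gapdh fell from 1099.9 and 1133 to 735 and 761 FPKM and from 977 and 1008 to 619 and 636 FPKM (log2 fold changes -0.58 and -0.66).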

How the data were processed

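TRIZOL was used to extract the RNA, which after DNase I digestion was sequenced on an Illumina HiSeq instrument, per the labels' protocols. The authors deposited one table of FPKM values per library, computed by Cuffdiff from alignments of TopHat2 2.0.6 to the mm9 mouse genome, per the submitters' processing notes. The Cuffdiff version, its scaling and the annotation were not given in the sources used here. Since FPKM are scaled within a library, a change in total RNA per cell would not show. Depth is unknown, so no counting intervals are given.

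Lines repeated word for word, 25 in 1 vehicle table, were counted once. Log2(FPKM + 1) values were fitted with limma 3.58.1 in R 4.3.3 (trend in the prior variance) on the 6 treatment libraries, 2 per group, with 3 residual degrees of freedom. Benjamini-Hochberg adjustment ran over all 12281 genes tested, and genes with an adjusted p below 0.05 were called. An exact permutation test of 2 against 2 cannot go below 0.333. The procedure was tested on simulated data. Levels of different genes are compared on the FPKM scale only.

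The gene lists and the genes named were chosen with earlier results of these data known. Named genes are the 15 highest and 15 lowest called genes whose mean reached 5 FPKM, up to 3 per direction in each list described whose mean reached 2 FPKM, 34 fixed genes, and the 5 most abundant called in each direction, without small RNA genes and unnamed gene models. A few genes that the rule names are not reported here. Genes outside this rule were named after their values were seen. These were Ets2, Cdx1, Hoxa3, Cyp26b1, the other Hoxb genes, Hoxb13, Hoxd8, Sdc4, the other genes whose promoters are shown or counted, the macrophage marker Csf1r, and Hsp90aa1 and Dnaja1. Promoters of RefSeq on GRCm38.p6 were matched by symbol to 9799 of 12281 genes tested. The alternatives tried were other pseudocounts, filters, scalings, treatments of repeated lines and small RNA genes, sets of libraries, a replicate block and leaving out each library. The other 6 libraries of the series entered only 1 of these.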

Additional observations from a re-analysis of the deposited data

How the results depend on the processing

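Genes called numbered 9762 in the values reported and between 7495 and 11578 under every alternative but 1, the fit of all 12 libraries, which called 6279, of which 2709 were higher. That fit also lowered many counts of called list members. Cytosolic ribosomal protein genes went from 58 lower and 12 higher to 22 and 1, and heat shock genes from 12 lower and 3 higher to 7 and 1. With a mean of at least 5 FPKM required, fewer genes were tested (9185) and 265 were at least 2-fold higher, and with a pseudocount of 0.1 2137 were at least 2-fold apart, 628 higher and 1509 lower. Quantile normalization gave 5423 genes higher and 4379 lower, and median-ratio scaling 4922 and 4893. Leaving out each library in turn gave 9027 to 9754 genes called, 3995 to 4466 higher, 4903 to 5288 lower, 1557 to 1605 at least 2-fold apart, 401 to 455 at least 2-fold higher and 1102 to 1204 at least 2-fold lower.

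Among log2 fold changes of named genes, 5416 values over all alternatives kept direction and call, 88 lost the call, 2 gained it and 2 reversed, namely Rps28 (0.96) and Rps2 (0.30) after quantile normalization. Of those against RA alone, 1048 kept both, 25 lost the call, 3 gained it and 2 reversed, both after quantile normalization: Dmrt1 (-0.14) and Fos (0.15). Of list medians, 6 reversed: RA uptake with a mean of at least 5 FPKM (-0.035), secreted ligands with no filter (0.014) and after quantile normalization (0.065), Wnt and Notch genes (0.027) and Hox genes (0.12) with no filter, and matrix genes after quantile normalization (0.072). A further 269 list medians were classed as moved without reversing, and 637 as the same. Counts of called list members moved by over 1.5 times in 97 of 1824 cases. Where no sentence above gives it, the cause was not tested.

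With the replicate number as a block, 9875 genes were called, 4523 higher and 5352 lower. Same-numbered libraries did not deviate together (r = 0.00978 for vehicle and RA, 0.0923 for vehicle and RA with CHX, and -0.0327 for RA and RA with CHX, across genes), so the numbers give no pairing. The block ended the call of Rps28 and that of Dmrt1 against RA alone among named genes. With 2 libraries per group and unknown depth, small differences of low genes could not be measured with precision.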

Other observations

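Genes of the circadian clock, a feedback loop of transcription factors that runs in most cells, rose more often than they fell with RA and CHX. Of 16 tested, 8 rose, 6 by at least 2-fold, and 4 fell (median log2 fold change 0.25). Among all genes 36.4% rose, 3.48% by at least 2-fold, and 43.0% fell. Dbp and Tef, clock output factor genes of the same family, rose from 2.29 and 2.78 to 8.91 and 10.1 FPKM and from 15.7 and 18.1 to 37.6 and 40.2 FPKM. Nr1d1, a repressor of the loop, stood at 27.6 and 32.8 FPKM with vehicle and 65.2 and 66.3 FPKM with RA and CHX (a log2 fold change of 1.10 ± 0.08 SE, adjusted p = 1.08e-05), and at 14.5 and 16.2 FPKM with RA alone. Rora, an activator of the loop, fell from 7.44 and 7.14 to 1.81 and 2.17 FPKM.

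Counts of splicing and mRNA decay regulators lay near those of all genes, of which 36.4% rose and 43.0% fell. Of 24 SR and splicing kinase genes, 9 rose and 12 fell, none by 2-fold, with Tra2b rising from 139.7 and 138 to 206 and 204 FPKM and Srsf7 falling from 139 and 133 to 70.3 and 69.5 FPKM. Of 25 mRNA decay factor genes, 9 rose and 9 fell. Zfp36 and Zfp36l1, which bind AU-rich elements of unstable mRNAs, fell from 30.7 and 35.2 to 10.6 and 11.03 FPKM and from 79.6 and 75.5 to 29.5 and 28.97 FPKM, and Pan2, a deadenylase subunit gene, rose from 38.9 and 38.7 to 86.2 and 89.8 FPKM. Histone genes, whose mRNAs mostly lack a poly(A) tail, had 14 of 45 higher and 6 lower, or 3 lower after quantile normalization and 11 without the first vehicle library, and Hist1h1c rose from 8.33 and 7.88 to 19.04 and 20.9 FPKM. Of 76 mitochondrial ribosomal protein genes, 40 rose and 20 fell, and Mrpl23 rose from 39.4 and 39.5 to 85.2 and 82.9 FPKM. Of 37 proteasome genes, 19 rose and 14 fell, none by 2-fold.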
